A study of Mus musculus with 23 samples.

Results

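The 8 genes described here encode enzymes of amino acid metabolism and 1 enzyme, Pck2, of the adjoining carbon metabolism: Asns, Aldh18a1, Pycr1, Gpt2, Cth, Cbs, Bcat1 and Pck2. They were found by gene symbol in every deposited gene table, where each matched 1 of the 38924 gene identifiers. The study immunoprecipitated ribosomes from mouse spinal cord at 2 weeks of age and sequenced the RNA bound to them. It used RiboTag, an Rpl22 allele whose product carries a haemagglutinin tag only in cells that express Cre, with Cre driven by the choline acetyltransferase (Chat) locus, which is active in motor neurons and other cholinergic neurons. The mutation, C201R, is a dominant allele of Gars, which encodes glycyl-tRNA synthetase, and serves as a mouse model of inherited peripheral neuropathy; the series title places the samples before disease onset.

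There were 23 libraries in 4 groups. The C201R Cre group (6 libraries) had the genotype Rpl+/-;Chat+/-;C201R+/- and the WT Cre group (5 libraries) Rpl+/-;Chat+/-;C201R+/+. The C201R no-Cre group (6 libraries) had Rpl+/-;Chat+/+;C201R+/- and the WT no-Cre group (6 libraries) Rpl+/-;Chat+/+;C201R+/+. In this notation +/+ marks an unaltered locus, so every animal carried 1 RiboTag allele and the no-Cre precipitates hold RNA that came down without a tag. The strain background was B6.CgxB6.129 throughout.

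Asparagine synthetase makes asparagine from aspartate, using glutamine as the nitrogen donor. Aldh18a1 and Pycr1 encode the first enzyme and a last-step enzyme of mitochondrial proline synthesis from glutamate, and Gpt2 encodes the mitochondrial alanine aminotransferase. Cbs and Cth act one after the other in the transsulfuration route from homocysteine to cysteine, Bcat1 encodes the cytosolic branched-chain aminotransferase, and Pck2 the mitochondrial enzyme that makes phosphoenolpyruvate from oxaloacetate. Several of these genes are known targets of ATF4, the transcription factor translated when uncharged transfer RNA or other stresses activate the integrated stress response; a classic ATF4 site joins a C/EBP element to an ATF element.

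Promoter sequences of RefSeq (build GRCm38.p6) were searched over the 250 bases before the start site for TGATGNAA, the letters of such a composite site, on both strands. A promoter was listed for 7 of the 8 genes, with 2 for Bcat1. The letters occurred in 3 of these 8 promoters, against 1134 of all 32851 promoters (3.45%). The 3 promoters with a match are printed with the match in capitals, and that of Aldh18a1, whose ribosome-bound RNA rose in mutants, is printed beside them although it holds no match; each runs 5′ to 3′ on the strand of its gene.
Asns, chr6:7693210-7693459, minus strand: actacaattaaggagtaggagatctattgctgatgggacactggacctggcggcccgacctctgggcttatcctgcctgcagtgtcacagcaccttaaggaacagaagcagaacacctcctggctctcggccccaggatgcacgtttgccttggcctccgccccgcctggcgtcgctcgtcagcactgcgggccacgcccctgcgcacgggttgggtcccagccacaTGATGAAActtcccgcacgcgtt
Pycr1, chr11:120643749-120643998, minus strand: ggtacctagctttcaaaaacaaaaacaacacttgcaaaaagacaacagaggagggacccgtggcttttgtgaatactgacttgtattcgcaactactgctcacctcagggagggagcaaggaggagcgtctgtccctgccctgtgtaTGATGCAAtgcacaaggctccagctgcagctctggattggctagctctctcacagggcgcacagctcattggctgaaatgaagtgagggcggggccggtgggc
Pck2, chr14:55540016-55540265, plus strand: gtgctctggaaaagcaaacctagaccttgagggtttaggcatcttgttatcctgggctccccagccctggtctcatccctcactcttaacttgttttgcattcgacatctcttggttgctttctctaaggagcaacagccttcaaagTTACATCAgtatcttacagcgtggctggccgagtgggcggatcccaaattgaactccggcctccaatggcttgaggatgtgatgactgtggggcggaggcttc
Aldh18a1, chr19:40588464-40588713, minus strand: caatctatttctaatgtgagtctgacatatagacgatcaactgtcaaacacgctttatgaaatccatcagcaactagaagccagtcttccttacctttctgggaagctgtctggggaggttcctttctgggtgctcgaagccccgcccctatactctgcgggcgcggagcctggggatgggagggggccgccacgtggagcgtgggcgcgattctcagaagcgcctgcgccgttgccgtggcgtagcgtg

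The match in Asns starts 23 bases before the RefSeq start site and reads TGATGAAA. By the GENCODE positions used below, in which Asns reaches to 7693254 on the minus strand, that match lies inside the gene. In Pycr1 the match starts 103 bases before the RefSeq start site and reads TGATGCAA. In Pck2 the capitals are the reverse complement of TGATGTAA and also start 103 bases before the start site. The promoters of Gpt2 and Cbs and both promoters of Bcat1 hold no match in this window. A match of letters is a description and says nothing of binding in these samples.

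Expected counts totalled 9031654 to 19671869 per library. A few ribosomal RNA-like genes took much of this, and 594383 counts were left without them in the library with the fewest, a C201R no-Cre precipitate. Without them, C201R Cre libraries held 2927104 to 6237428 counts and WT Cre libraries 1213587 to 4466014. Raw counts and their sums given below are not scaled for this depth, so their contrasts between genotypes include it. Levels are given as counts-per-million (CPM) on library sizes scaled by TMM over all 23 libraries. As a check of the labels, Chat had 33.7 ± 13.7 CPM in C201R Cre precipitates (SD, n = 6) and 56.1 ± 11.8 CPM in WT Cre precipitates (SD, n = 5), against 3.11 ± 2.64 and 2.25 ± 1.88 CPM in C201R and WT precipitates without Cre (SD, n = 6 each). All 10 motor neuron markers tested were called higher in WT Cre over WT no-Cre precipitates, and 8 of 9 in C201R Cre over C201R no-Cre precipitates. Between the Cre groups, the summed CPM of 10 oligodendrocyte markers ran from 822 to 7287 in C201R and from 558 to 3125 in WT. All 10 had positive fold changes in C201R, 7 of them with an unadjusted p under 0.05, and none was called. Over all genes tested between the Cre groups, 2113 of 12399 had an unadjusted p under 0.05 in edgeR's test, in either direction. Summed CPM of 11 motor neuron markers ran from 976 to 2808 in C201R and from 2078 to 4056 in WT Cre precipitates (median log2 fold change -0.69, 6 of 11 lower with an unadjusted p under 0.05, none called). Summed CPM of 10 microglia markers ran from 9.12 to 181 in C201R and from 9.22 to 14.7 in WT. In C201R, replicates 4, 6 and 1 had 181, 61.5 and 29.8 CPM, and replicates 2, 3 and 5 had 9.35, 9.59 and 9.12 CPM. The 4 microglia markers tested had positive fold changes with an unadjusted p under 0.05 (median 2.40, none called). The part of these shifts in the results that follow was not tested except where a value is given.

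The question of the series is what the mutation does to RNA on motor neuron ribosomes. Of the 8 enzymes, 2 were called between the Cre groups, 7 had positive estimates, and no test compared the enzymes with each other. The 2 genes of proline synthesis rose in C201R Cre precipitates, Aldh18a1 by 2.78-fold and Pycr1 by 4.70-fold. Gpt2 and Cth had positive estimates that missed the threshold after adjustment, while Asns, Bcat1, Pck2 and Cbs had estimates whose 95% intervals included 0. In edgeR's quasi-likelihood test with Benjamini-Hochberg adjustment over 12399 genes, 2 of 8 enzymes passed an adjusted p of 0.05 as higher, against 0.234% of all genes tested (29 genes), and 0 passed as lower. The median log2 fold change (C201R over WT) was 0.98 over the 8 enzymes and 0.06 over all genes tested. In 3 of the 8, namely Aldh18a1, Pycr1 and Gpt2, every C201R Cre library was above every WT Cre library, which held for 1.08% of all genes. The enzymes were chosen with earlier results of these data known, so these comparisons with all genes are a description and no independent support. In bulk precipitates, fewer cells of a type and less RNA per cell cannot be told apart.

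**Figure D1:**
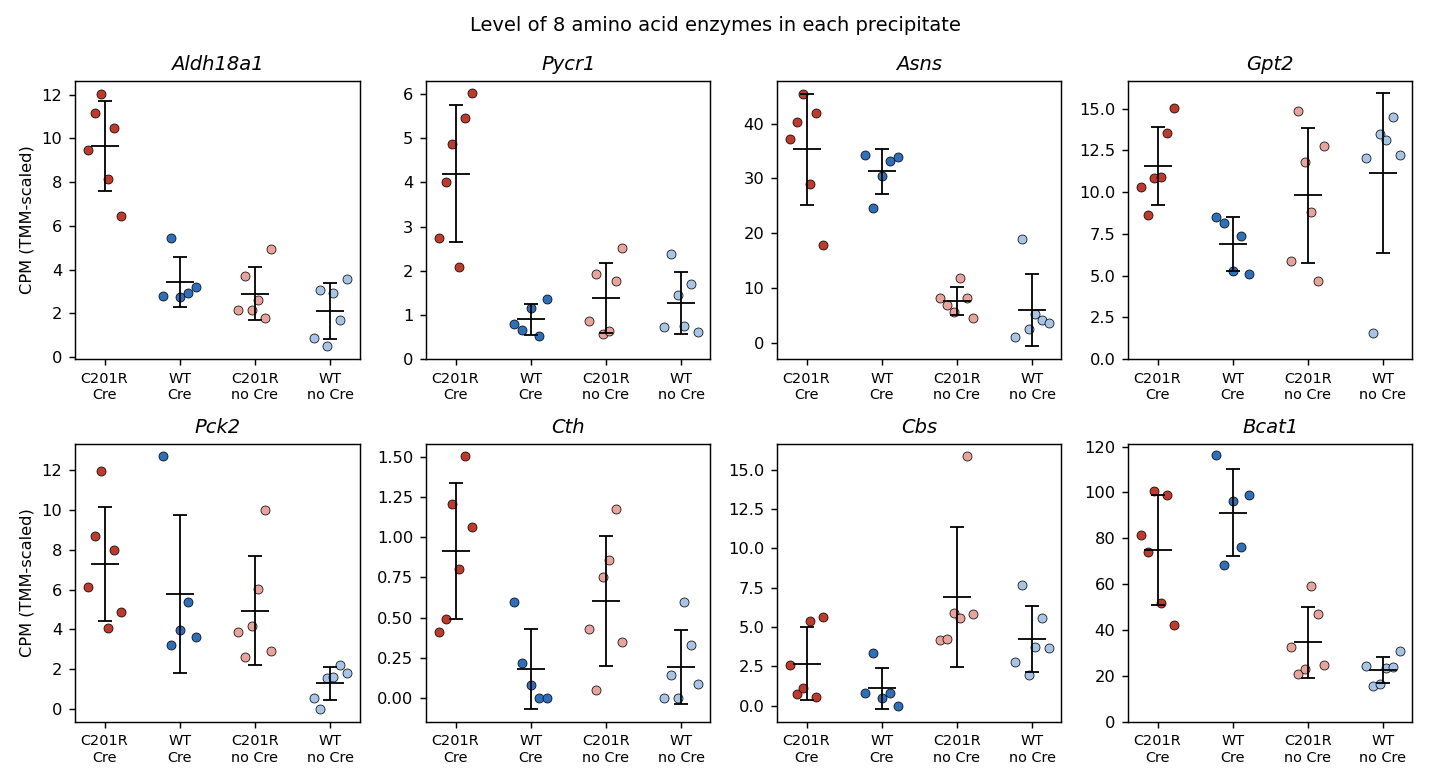
Level of each enzyme in CPM (TMM-scaled, linear axes) in the 4 groups, 1 point per library, with the mean and SD in black. Aldh18a1 lies between 6.46 and 12.05 CPM in C201R Cre precipitates and at no more than 5.43 CPM in WT Cre precipitates, while Asns and Bcat1 are high in both Cre groups.

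Aldh18a1 (chr19:40550257-40588463, GRCm38, minus strand) encodes pyrroline-5-carboxylate synthase, which commits glutamate to proline and ornithine. It had 9.49, 11.2, 12.05, 8.16, 10.5 and 6.46 CPM in the 6 C201R Cre precipitates, against 2.78, 5.43, 2.73, 2.95 and 3.18 CPM in the 5 WT Cre precipitates. The groups did not overlap, and the lowest mutant value belonged to replicate 6 and the highest wild-type value to replicate 2. Counts behind these values were 103 to 339 per library in C201R and 14 to 124 in WT. This gave a log2 fold change of 1.48 ± 0.23 (SE; edgeR adjusted p = 0.0129), and 6 of 6 mutant libraries showed it. Without WT Cre replicate 3 the estimate was 1.41 with an adjusted p of 0.0619. It was 1.48 with an adjusted p of 0.318 when all 23 libraries shared 1 fit, and 2.06 with an adjusted p of 0.259 under library totals only.

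Pycr1 (chr11:120635712-120643769, minus strand) encodes a mitochondrial pyrroline-5-carboxylate reductase, the enzyme that finishes proline. It had 2.73, 4.02, 4.87, 2.09, 5.46 and 6.02 CPM in C201R Cre precipitates, against 0.793, 0.657, 1.16, 0.529 and 1.36 CPM in WT Cre precipitates. Here too the groups did not overlap. Counts were low, 57 to 167 per library in C201R and 4 to 15 in WT. Their log2 fold change was 2.23 ± 0.38 (SE; edgeR adjusted p = 0.0193). The call was lost without 1 of 5 libraries, WT Cre replicates 1, 3 and 4 and C201R Cre replicates 3 and 5, with adjusted p-values between 0.0134 and 0.0708 over all 11 omissions, and in the fit of all 23 libraries (adjusted p = 0.121).

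The number that opens each library's title, whose meaning the labels do not give, was shared by 2 C201R and 2 WT Cre precipitates for each of 20302 and 20401. As the difference of mean log2(CPM + 1), C201R minus WT, Aldh18a1 gave 1.52 within 20302 and 1.31 within 20401. Pycr1 gave 0.94 and 1.84 in the same order. In both numbers both mutant libraries were above both wild-type libraries for each gene. With the title number as a block the adjusted p was 0.0374 for Aldh18a1 and 0.111 for Pycr1 (log2 fold change 2.08).

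The last step of proline synthesis also has a cytosolic form, listed under its older symbol Pycrl, which did not change detectably between the Cre groups. It had 2.13 ± 1.07 CPM in C201R and 1.87 ± 1.06 CPM in WT (SD, n = 6 and 5), a log2 fold change of 0.15 (edgeR adjusted p = 0.872).

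Of 8 further proline, ornithine and arginine enzymes tested between the Cre groups, 0 were called in either direction and 0 had an unadjusted p under 0.05. The smallest p-values belonged to Asl, argininosuccinate lyase, at 1.37 ± 0.58 CPM in C201R and 1.87 ± 0.83 CPM in WT (SD; log2 fold change -0.44, edgeR adjusted p = 0.605), and Aldh4a1, which degrades proline's intermediate to glutamate, at 1.98 ± 0.97 CPM in C201R and 1.49 ± 0.45 CPM in WT (SD; 0.39, edgeR adjusted p = 0.622).

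Asns (chr6:7675169-7693254, minus strand) was abundant on tagged ribosomes of both genotypes. It ran from 17.9 through a median of 38.7 to 45.4 CPM in C201R Cre precipitates, and had 34.3, 24.5, 30.5, 33.2 and 33.9 CPM in WT Cre precipitates. The groups overlapped, with the lowest value of all in C201R replicate 6 and the 4 highest also in C201R. The log2 fold change was 0.16 with a 95% interval from -0.29 to 0.61 (edgeR adjusted p = 0.706). With the mean of oligodendrocyte, astrocyte and microglia markers as a covariate (glial covariate) it was 0.42 (edgeR adjusted p = 0.426). Without title number 18405, that of C201R replicates 4 and 6, it was 0.37 (edgeR adjusted p = 0.334). Within title numbers 20302 and 20401 it was 0.26 and 0.57 on the log2(CPM + 1) scale, with both mutant libraries above both wild-type ones in each. Among 12 other asparagine, aspartate, glutamine and glutamate enzymes tested, 0 were called. The smallest p-values belonged to Got1, the cytosolic aspartate aminotransferase, with 92.6 ± 22.1 CPM in C201R and 128 ± 27.8 CPM in WT (SD; log2 fold change -0.49, edgeR adjusted p = 0.261), and Gad2, which makes GABA from glutamate, with 8.13 ± 1.51 and 5.55 ± 2.98 CPM in C201R and WT (SD; 0.53, edgeR adjusted p = 0.330).

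Gpt2 (chr8:85492576-85527560, plus strand) ran from 8.63 through a median of 10.9 to 15.0 CPM in C201R Cre precipitates, and had 8.53, 8.15, 5.29, 7.40 and 5.12 CPM in WT Cre precipitates. The groups did not overlap, by a margin of 8.63 over 8.53 CPM. Gpt2 had a log2 fold change of 0.75 ± 0.21 (SE; unadjusted p = 0.00252, edgeR adjusted p = 0.122), with a 95% interval from 0.31 to 1.19. DESeq2 (adjusted p = 0.0435) and limma-voom with quality weights (adjusted p = 0.0381) called it, as did edgeR without WT Cre replicate 2 (adjusted p = 0.0438). Each of these calls more genes in all: 122 higher and 291 lower for DESeq2, 262 and 606 for limma-voom and 423 and 631 without that library, against 29 and 12. Its cytosolic counterpart Gpt summed to 47 counts over the C201R and 4 over the WT Cre precipitates, too few for the test. Of 10 other alanine and pyruvate enzymes tested, 0 were called, and 3 had an unadjusted p under 0.05 with negative fold changes (2113 of 12399 over all genes, in either direction). The smallest p-values were those of Pkm, the pyruvate kinase of muscle and brain, at 242 ± 39.9 CPM in C201R and 415 ± 131 CPM in WT (SD; log2 fold change -0.79, edgeR adjusted p = 0.132), and Mpc2, a subunit of the mitochondrial pyruvate carrier, at 35.1 ± 2.66 CPM in C201R and 47.3 ± 8.55 CPM in WT (SD; -0.44, edgeR adjusted p = 0.201).

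Pck2 (chr14:55540266-55551242, plus strand) ran from 4.06 through a median of 7.07 to 11.9 CPM in C201R Cre precipitates, and had 12.7, 3.24, 3.97, 5.36 and 3.64 CPM in WT Cre precipitates. WT replicate 1 held the highest value of both groups, on 64 counts, and the groups overlapped. The log2 fold change was 0.37 with a 95% interval from -0.44 to 1.17 (edgeR adjusted p = 0.620), and 0.84 without WT replicate 1 (adjusted p = 0.356). It was 0.77 with the glial covariate (edgeR adjusted p = 0.433) and 0.62 without title number 18405 (edgeR adjusted p = 0.473). Pck1, the cytosolic isoenzyme known from liver and kidney, summed to 108 counts over the C201R Cre precipitates, 86 of them in 1 library, and to 5 counts over the WT Cre precipitates.

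The transsulfuration pair sat at the bottom of the range. Cth (chr3:157894248-157925077, minus strand), which releases cysteine from cystathionine, had 13, 15, 23, 22, 46 and 17 counts in the 6 C201R Cre precipitates, against 3, 5, 1, 0 and 0 counts in the 5 WT Cre precipitates. These counts are not scaled for depth. In CPM Cth ran from 0.408 through a median of 0.935 to 1.50 in C201R and from 0 through 0.0827 to 0.595 in WT. WT replicate 1 exceeded C201R replicates 1 and 2 in CPM, so the groups overlapped on that scale. Cth had a log2 fold change of 2.59 ± 0.76 (SE; unadjusted p = 0.00422, edgeR adjusted p = 0.141), with a 95% interval from 0.95 to 4.22. At these counts the size of the difference is known only within that interval. Cth passed the filter on low counts through its C201R libraries alone, so its p-value and interval are only a description.

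Cbs (chr17:31608894-31637238, minus strand), which joins homocysteine and serine and is known to be abundant in astrocytes, varied widely within groups. It had 2.61, 0.725, 1.15, 5.41, 0.523 and 5.64 CPM in C201R Cre precipitates, against 0.793, 3.37, 0.496, 0.831 and 0 CPM in WT Cre precipitates. C201R replicates 4 and 6 were highest among mutants, and WT replicate 2 stood above the other wild-type libraries. The summed CPM of 10 astrocyte markers was 264, 160, 172, 570, 222 and 691 in the same 6 C201R libraries, and 200.5, 399, 172, 165 and 168 in the same 5 WT libraries. The libraries highest in Cbs were also the highest in astrocyte markers, in each genotype. They stood out in other lists too. C201R replicates 4 and 6 were highest of their group in summed oligodendrocyte markers (5326 and 7287 CPM) and lowest in motor neuron markers (1188.5 and 976 CPM). WT replicate 2 was likewise highest (3125 CPM) and lowest (2078 CPM) of its group. Which cell type goes with Cbs was not tested. All 10 astrocyte markers had positive fold changes in C201R (median log2 fold change 0.97), 1 of them with an unadjusted p under 0.05, and no marker was at 0 in either group. The log2 fold change of Cbs was 1.21 with a 95% interval from -0.46 to 2.89 (edgeR adjusted p = 0.422). It was 0.31 with the mean astrocyte level as a covariate and 0.013 with the glial covariate. Without title number 18405, which holds C201R replicates 4 and 6, it was 0.08.

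Under the same changes both proline genes stayed called. With the glial covariate Aldh18a1 was at 1.51 (edgeR adjusted p = 0.00532) and Pycr1 at 2.36 (edgeR adjusted p = 0.00862). Aldh18a1 was at 1.49 with the astrocyte covariate (edgeR adjusted p = 0.00450) and at 1.61 without title number 18405 (adjusted p = 0.00446). Pycr1 was at 2.30 (adjusted p = 0.00861) and 2.24 (adjusted p = 0.0147) in the same order. C201R replicates 4 and 6, highest in astrocyte markers, had 8.16 and 6.46 CPM of Aldh18a1, the lowest of the mutants, and 2.09 and 6.02 CPM of Pycr1, the lowest and the highest. In WT the library highest in astrocyte markers, replicate 2, was the highest in Aldh18a1 (5.43 CPM) and had 0.657 CPM of Pycr1. The astrocyte covariate and the omission of title number 18405 were chosen after the values were seen.

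**Figure D2:**
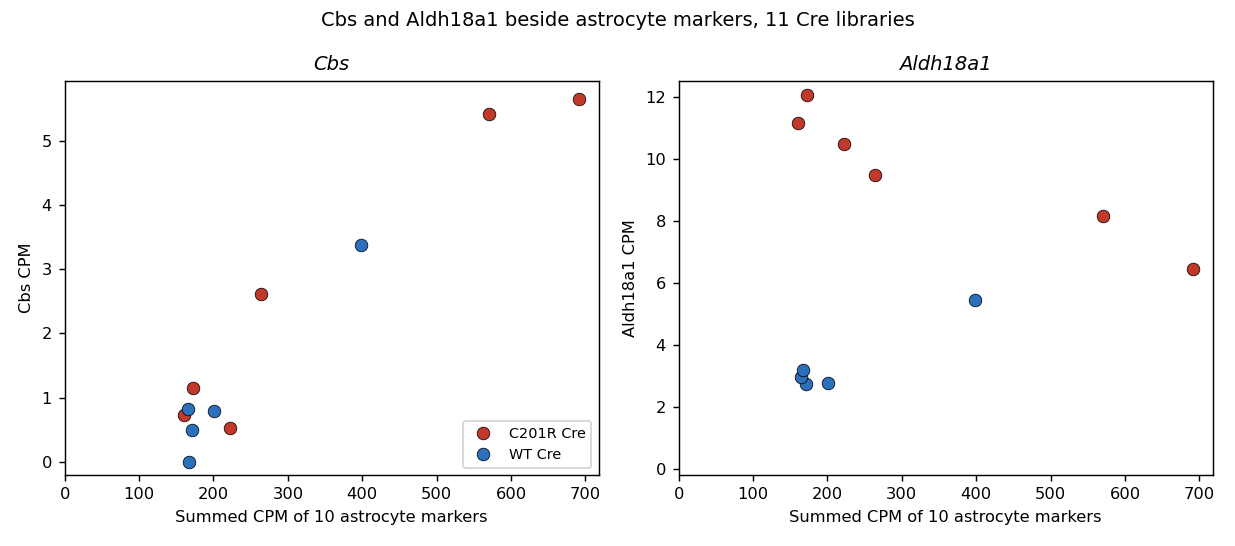
CPM of Cbs (left) and Aldh18a1 (right) against the summed CPM of 10 astrocyte markers in the 11 Cre libraries, C201R in red and WT in blue, linear axes. Cbs has 5.41 and 5.64 CPM at sums of 570 and 691, where Aldh18a1 has 8.16 and 6.46 CPM; the WT library with the highest sum (399) has 3.37 CPM of Cbs and 5.43 CPM of Aldh18a1, the highest of WT in both.

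Of 13 other cysteine and methionine enzymes tested, 0 were called and 3 had an unadjusted p under 0.05, all 3 with negative fold changes (2113 of 12399 over all genes, in either direction). Cdo1, which oxidises cysteine, had 4.68 ± 0.31 CPM in C201R and 7.31 ± 2.58 CPM in WT (SD; log2 fold change -0.65, edgeR adjusted p = 0.201), and Mtr, methionine synthase, had 2.08 ± 0.39 and 3.84 ± 1.98 CPM in C201R and WT (SD; -0.88, edgeR adjusted p = 0.224).

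Bcat1 (chr6:144993835-145076184, minus strand) had the highest level of the 8 in both Cre groups, per length as well as in CPM. It ran from 42.2 through a median of 77.6 to 101 CPM in C201R Cre precipitates, and had 116, 68.5, 96.2, 76.1 and 98.8 CPM in WT Cre precipitates. The groups overlapped, and the 2 lowest values were those of C201R replicates 4 and 6. The log2 fold change was -0.30 with a 95% interval from -0.80 to 0.20 (edgeR adjusted p = 0.504). Its sign depended on the scaling: it was 0.65 with library totals only, a scaling that moved the median of all genes from 0.06 to 0.79. Bcat2, the mitochondrial isoenzyme, was a minor form, with Bcat1 making up a median of 97.3% of their summed TPM in C201R and 98.1% in WT Cre precipitates, and its log2 fold change was -0.22 (edgeR adjusted p = 0.758). Of 21 other branched-chain enzymes tested, 0 were called and 4 had an unadjusted p under 0.05, all 4 with positive fold changes. Over all genes 2113 of 12399 had an unadjusted p under 0.05 in this comparison, so that count is near the background. Ppm1k, the phosphatase that activates the branched-chain ketoacid dehydrogenase, had 4.66 ± 1.54 and 2.59 ± 1.18 CPM in C201R and WT (SD; log2 fold change 0.82, edgeR adjusted p = 0.221), and Ivd, isovaleryl-CoA dehydrogenase, had 6.87 ± 2.63 and 4.06 ± 1.53 CPM (SD; 0.78, edgeR adjusted p = 0.245).

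Bcat1 shares 337 exon bases with the antisense gene Gm26666, which had at most 20.7 expected counts in a library, and the strand setting of the counting is not given in the sources used here.

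Without Cre, the genotype comparison asks whether the untagged background differs between mutants and wild type. Of 7 enzymes tested, 0 were called, against 0% of 12588 genes by edgeR. The unadjusted p was under 0.05 for 565 genes, and DESeq2 and limma-voom also called 0 of the 7. Cth was left out by the filter on low counts. Its mean CPM without Cre had a ratio of 3.13, C201R over WT, and 3 of 6 C201R libraries were above every WT library. With Cre the ratio was 5.09, and 4 of 6 C201R libraries were above every WT library. Pck2 ran from 2.62 through 4.04 to 9.98 CPM in C201R no-Cre precipitates and from 0 through 1.58 to 2.201 CPM in WT no-Cre precipitates. The groups did not overlap, which held for 0.0794% of all genes (10 genes). Its log2 fold change was 1.83 ± 0.65 (SE; unadjusted p = 0.0106, edgeR adjusted p = 0.951). The 2 proline genes had 0.45 (Aldh18a1) and 0.12 (Pycr1) there, neither called.

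The difference between the 2 genotype effects, with Cre minus without Cre, was tested as an interaction over all 23 libraries. Of 8 enzymes 0 were called, against 0.0207% of 14468 genes (3 genes); DESeq2 and limma-voom also called 0 of the 8. Pycr1 had the smallest p, with a difference of 2.08 ± 0.71 (SE; unadjusted p = 0.00663, edgeR adjusted p = 0.348), and Bcat1 a difference of -0.90 (unadjusted p = 0.0292, adjusted p = 0.437). For Aldh18a1 the difference was 1.00 (edgeR adjusted p = 0.519). The rise of the proline genes with Cre was therefore not shown to differ from the background precipitates by this test.

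**Figure D3:**
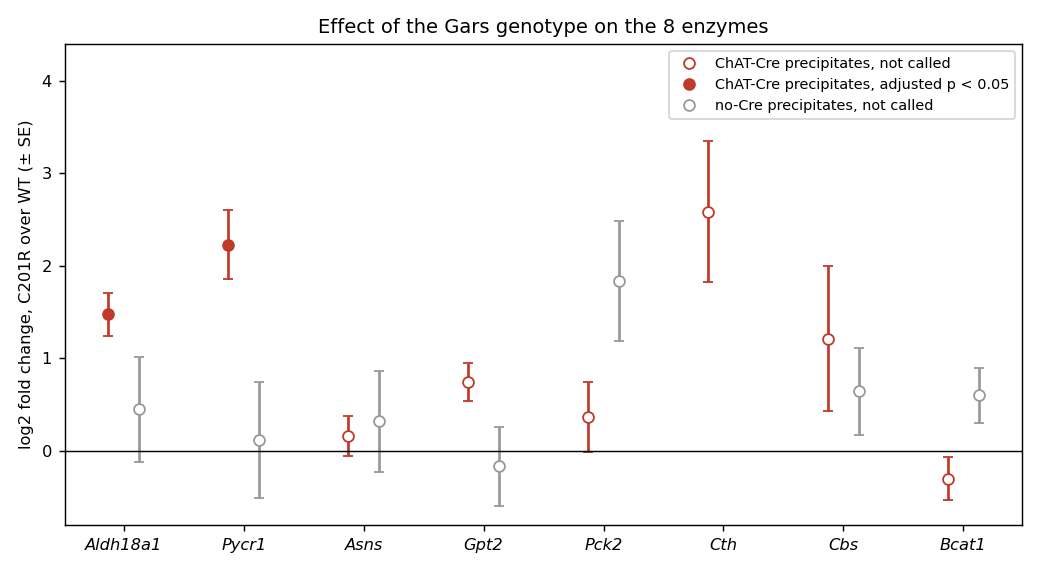
Log2 fold change, C201R over WT, of the 8 enzymes in precipitates with ChAT-Cre (red) and without Cre (grey), bars showing the SE; filled points pass an edgeR adjusted p of 0.05. Aldh18a1 (1.48) and Pycr1 (2.23) are the filled points, and Cth has no grey point because it was not tested without Cre.

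Each genotype's Cre precipitates were also set against its no-Cre precipitates, which asks which enzymes stood above background on tagged ribosomes. Asns and Bcat1 did so in both genotypes, Pck2 in WT, and the 2 proline genes in C201R. In WT, 3 of 7 tested enzymes were called higher with Cre (20% of 12485 genes were), and 1 lower (25.9% of genes). Asns had 31.3 ± 4.05 CPM in WT Cre precipitates (SD, n = 5) and 5.92 ± 6.56 CPM in WT no-Cre precipitates (SD, n = 6), a log2 fold change of 2.50 ± 0.51 (SE; edgeR adjusted p = 0.000843). Bcat1 had 91.2 ± 19.0 and 22.4 ± 5.67 CPM in WT Cre and WT no-Cre precipitates (SD), a log2 fold change of 2.11 (edgeR adjusted p = 1.05e-05). Pck2 had 5.78 ± 3.95 CPM with Cre and 1.29 ± 0.83 CPM without Cre (SD), a log2 fold change of 2.17 (edgeR adjusted p = 0.0104). For these 3 the WT groups did not overlap, as for 13.3% of all genes. Cbs was lower with Cre, at 1.10 ± 1.31 CPM against 4.22 ± 2.09 CPM without Cre (SD; log2 fold change -1.82, edgeR adjusted p = 0.0448), as were 8 of 10 astrocyte markers. The Cbs call was lost without any 1 of WT Cre replicates 1, 3, 4 and 5 and WT no-Cre replicates 2, 4, 5 and 6 (adjusted p up to 0.111), and the Pck2 call without WT Cre replicate 1 (adjusted p = 0.0533). Glial markers and Cre go together here: with a glial covariate 3 of all 12485 genes were called, and none of these 4. Asns then had a log2 fold change of 2.08 ± 1.48 (SE) and Cbs one of 1.74.

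In C201R, 4 of 8 enzymes were called higher with Cre (14.1% of 12741 genes were) and 0 lower. Asns had 35.3 ± 10.2 CPM in C201R Cre and 7.58 ± 2.52 CPM in C201R no-Cre precipitates (SD, n = 6 each), a log2 fold change of 2.18 (edgeR adjusted p = 4.16e-05). Bcat1 had 74.8 ± 24.1 and 34.6 ± 15.3 CPM with and without Cre (SD), a log2 fold change of 1.06 (edgeR adjusted p = 0.0141). The proline genes passed in this genotype: Aldh18a1 had 9.64 ± 2.06 CPM with Cre and 2.88 ± 1.21 CPM without (SD), a log2 fold change of 1.63 (edgeR adjusted p = 0.000760). Pycr1 had 4.198 ± 1.55 and 1.38 ± 0.80 CPM with and without Cre (SD), a log2 fold change of 1.54 (edgeR adjusted p = 0.0148). Asns and Aldh18a1 did not overlap between the C201R groups, as for 9.71% of all genes. In WT the same contrast gave 0.75 for Aldh18a1 (edgeR adjusted p = 0.248) and -0.40 for Pycr1 (edgeR adjusted p = 0.613), so wild-type precipitates gave no detectable excess of either over background. Gpt2 was not called in either genotype, with -0.62 in WT (edgeR adjusted p = 0.236) and 0.14 in C201R (edgeR adjusted p = 0.728). Gpt2 was called lower in WT without WT no-Cre replicate 2 (-0.86, adjusted p = 0.00788). Cth was not called with Cre in C201R, at 0.76 (edgeR adjusted p = 0.359), and was not tested in WT. Its C201R precipitates thus gave no detectable excess over background. In C201R, Pck2 was called higher without C201R no-Cre replicate 5 (1.03, adjusted p = 0.0211) and Cbs lower without C201R Cre replicate 4 (-1.70, adjusted p = 0.0428). Title number 18405 holds 2 C201R Cre libraries and 1 C201R no-Cre library, so a fit within it assumes that the lone library varies like the others. There neither proline gene was called, at 1.01 for Aldh18a1 (adjusted p = 0.0743) and 1.06 for Pycr1 (adjusted p = 0.164). The test of the difference between genotypes is the interaction above. Values without Cre show what the beads carry down unspecifically, and Cre precipitates hold some of it too.

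Per length, the order of the 8 in deposited TPM was the same in both Cre groups. Medians in C201R Cre precipitates were 131 TPM for Bcat1, 47.5 for Asns, 25.0 for Aldh18a1, 9.29 for Gpt2, 5.76 for Pck2, 4.72 for Pycr1, 2.14 for Cbs and 1.35 for Cth. In WT Cre precipitates they were 83.0 TPM for Bcat1, 17.9 for Asns, 2.53 for Aldh18a1, 2.27 for Gpt2, 1.65 for Pck2, 0.59 for Pycr1, 0.39 for Cbs and 0.05 for Cth. Neighbours in that order often overlapped: Aldh18a1 spanned 14.6 to 27.4 TPM and Gpt2 7.40 to 14.1 TPM in C201R, without overlap, whereas in WT they spanned 1.19 to 12.6 and 1.88 to 7.34 TPM. TPM is not corrected for the share of ribosomal RNA-like genes, so these levels are not compared between genotypes here. A fit on deposited TPM served only as 1 alternative setting.

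Genes whose level followed each enzyme most closely over the 11 Cre libraries were found by Pearson's r of log2(CPM + 1), as a description, since the libraries share genotype and depth. For Aldh18a1 the closest were March7 (0.965), Stard5 (0.961) and Glp1r (0.950). For Pycr1 they were Fgf21 (0.933), Fam129a (0.930) and Tra2a (0.917), and for Gpt2 Foxp1 (0.915), Slc7a5 (0.912) and Pcdh20 (0.910). Asns went with Ap3d1 (0.944), Mllt11 (0.932) and Ywhab (0.925), and Bcat1 with Kif3a (0.968), Cpeb1 (0.964) and Ywhag (0.958). Cbs went with Mmd2 (0.982), Axl (0.977) and Fgfrl1 (0.977), Cth with Mdfic (0.924), Vldlr (0.919) and Cdkn1a (0.899), and Pck2 with Tysnd1 (0.916), Leo1 (0.914) and Mybbp1a (0.895). Among the genes named here, no enzyme of the 8 shared one with another. Lists this short cannot decide whether the enzymes share close genes, and correlations between the 8 enzymes are not given here.

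Atf4 itself had 43.7 ± 7.49 CPM in C201R Cre precipitates (SD, n = 6) and 24.0 ± 4.69 CPM in WT Cre precipitates (SD, n = 5), a log2 fold change of 0.86 (edgeR adjusted p = 0.0676). Gars had 70.1 ± 21.4 and 57.8 ± 10.6 CPM in C201R and WT Cre precipitates (SD; 0.26, edgeR adjusted p = 0.532), and Rpl22 11.5 ± 2.61 and 10.2 ± 1.67 CPM (SD; 0.18, edgeR adjusted p = 0.657). The C201R allele is a missense change, and gene counts do not tell it from wild type.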

How the data were processed

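RNA from anti-haemagglutinin precipitates of spinal cord was sequenced in 23 libraries, which were grouped by source label. The submitters' processing notes name Bowtie2 2.2.0 and RSEM 1.2.12 as the authors' tools; the build is not given in the sources used here, nor is the annotation. The deposited expected counts carry no depth normalization and were rounded. The deposited TPM, scaled by length and library by the authors, served for levels between genes and 1 alternative; deposited FPKM was not used. Positions come from GENCODE M21 (GRCm38), which matched 37607 of 38924 identifiers.

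Genes were tested by edgeR 4.0.16 under R 4.3.3 in the groups compared, or in all 23 libraries for the interaction. Low genes were removed by filterByExpr (at least 10 counts in enough libraries, 15 in all), libraries were scaled by TMM, and the quasi-likelihood F test was used. P-values were Benjamini-Hochberg adjusted over all genes tested, with a threshold of 0.05. DESeq2 1.42.0, limma 3.58.1 and other settings were alternatives, and the fit was tested on simulated data. Every limma-voom fit used quality weights, which give each library its own weight. The enzymes and gene lists were chosen with earlier results of these data known. All 8 enzymes, their isoenzymes (1 of which is not reported here), Chat, Gars, Rpl22, the 2 other genes of each pathway list with the smallest p and the 3 closest genes of each enzyme are named; Atf4 was added after its values were seen. Separate animals are not stated for the libraries, and p-values then reflect only the spread among these samples, which may be technical. No 2 libraries of a group differed by as little as counting noise (lowest chi-square per degree of freedom 8.53 over 55 pairs). That value includes the ribosomal RNA-like genes, whose share differed between libraries (50.55% and 88.97% in WT Cre replicates 2 and 1). It therefore cannot tell technical repeats from separate animals.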

Additional observations from a re-analysis of the deposited data

Results flagged for a closer look

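Of 32 sets of values (8 enzymes in 4 groups), 6 held 1 library far from the others of its group. The rule flags about 1 set in 20 by chance if values are normally distributed. CPM on low counts need not be, so the chance rate here is not known. Values are in CPM. Of these 6, 3 concern wild-type Cre precipitates: Aldh18a1 was 5.43 in replicate 2, with the next at 3.18, Cbs was 3.37 in replicate 2, with the next at 0.831, and Pck2 was 12.7 in replicate 1, with the next at 5.36. In WT no-Cre precipitates replicate 2 was the highest for Asns, at 19.0 with the next at 5.26, and the lowest for Gpt2, at 1.54 with the next at 12.03. In C201R no-Cre precipitates Cbs was 15.8 in replicate 5, with the next at 5.88; that library has the fewest counts outside ribosomal RNA-like genes, and its value rests on 27 counts. WT Cre replicate 2 also had the highest sum of astrocyte markers of its group (399 CPM). Its omission raised the enzymes called higher between the Cre groups to 3, and the calls over all genes to 423 higher and 631 lower, against 29 and 12.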

How the results depend on the processing

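Counts of enzymes called depended on the setting. Higher in C201R over WT with Cre was 2, but 3 with DESeq2 or limma-voom, 1 with library totals only, 1 with a filter at a mean of 5 CPM, 0 with all 23 libraries in one fit and 1 with the title number as replicate block, and 0 to 3 when 1 library was left out (0 without WT Cre replicate 3, 1 without C201R Cre replicates 3 or 5 or WT Cre replicates 1 or 4, 3 without WT Cre replicate 2). Over all genes, calls higher and lower in that comparison were 29 and 12, but 122 and 291 with DESeq2, 262 and 606 with limma-voom, 17 and 0 with totals only, 9 and 2 in the fit of all libraries and 18 and 1 with the block. Higher with Cre in WT was 3, but 2 with DESeq2 or the 5 CPM filter, 1 with totals only, 0 with a glial covariate and 2 to 3 by library left out; lower was 1, but 0 with totals only, the 5 CPM filter, the glial covariate or the sex-linked covariate, 2 with limma-voom and 0 to 1 by library left out. Higher with Cre in C201R was 4, but 5 with totals only or limma-voom, 3 with the 5 CPM filter, 2 with the glial covariate, 2 within title number 18405 and 4 to 5 by library left out; lower was 0, but 1 with DESeq2, limma-voom or without title number 18405 and 0 to 1 by library left out. The 5 CPM filter left 5 enzymes to test between the Cre groups, without Pycr1, 3 with Cre in WT and 5 with Cre in C201R. Its lower counts therefore include enzymes that were not tested. No enzyme was called in the comparison without Cre or in the interaction under any setting run.

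Library totals only moved the median log2 fold change of all genes from 0.06 to 0.79 (genotype with Cre), -0.02 to -0.35 (genotype without Cre), 0.12 to 1.18 (interaction) and -0.14 to 1.13 (Cre in C201R, where 3248 genes were called higher and 275 lower, against 1800 and 2447). Under it signs turned for Bcat1 between the Cre groups (0.65) and for Cbs (0.081) with Cre in C201R. They also turned for Pycr1 (-0.024), Cbs (-0.046) and Bcat1 (-0.25) without Cre. In the interaction they turned for Asns (1.05), Bcat1 (0.90) and Pck2 (0.67). Bcat1 between the Cre groups was also positive with deposited TPM (0.42), where the median of all genes was 0.73. Uncalled values also turned sign without Cre within title number 20301 (Asns -0.57, Pycr1 -0.71, Gpt2 0.43) and in Pycr1 by library left out (-0.18 to 0.39). In the interaction they did so with the glial covariate (Asns 0.095, Cbs -0.69), without title number 18405 (Asns 0.077, Cbs -0.61), with the block (Asns 0.067) and by library left out (Asns -0.94 to 0.032). With Cre over no Cre, Cbs in WT, called lower, turned sign with the glial covariate (1.74, not called), and uncalled values did in C201R for Gpt2 (-0.18, limma-voom), Pck2 (-0.059, glial covariate), and Gpt2 (-0.19) and Cbs (0.40) within 18405. Apart from the totals, whose shift is the scaling itself, the cause was not tested.

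No paired analysis was possible because replicate numbers follow the order of deposit and pair no libraries; the title number was the block instead. Depth limits the low genes: of 23 libraries, counts were under 20 in 20 for Cth, 14 for Pycr1, 7 for Cbs, 6 for Aldh18a1 and 4 for Pck2.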
